A study of Mus musculus with 16 samples.

Results

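The nuclear genes of the mitochondrial cytochrome pathway were followed in rod photoreceptors of ageing mice: the subunits of complexes III, IV and V and the cytochrome c that links complex III to complex IV. Members were the protein-coding rows of the authors' gene table whose names begin with Uqcr, with Cox and a digit from 4 to 8, or with Atp5, together with Cyc1 and Cycs. The choice used names only and gave 46 of 45594 gene rows, or of 22175 protein-coding rows. The 46 rows carry 45 gene symbols, because Uqcrc1 has a row on chromosome 9 and a row on a patch sequence. Of the 45 genes, 37 passed the filter of 5 CPM (counts relative to the library total) in at least 4 libraries and were tested among 12177 genes. The CPM levels of genes given below were also scaled by TMM. These 37 are 10 genes of complex III and cytochrome c, 11 of complex IV, 15 of ATP synthase, and Atp5sl, which carries an Atp5 name and is no subunit of the core enzyme.

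The cells came from retinas of C57BL/6J mice that carry GFP under the Nrl promoter (Nrlp-GFP). Nrl is the transcription factor that specifies rods, and all groups share this reporter. GFP-positive cells were sorted at 3, 12, 18 and 24 months of age (3M, 12M, 18M and 24M), with a purity check by re-sorting per the labels, and with 4 libraries per age that the design text calls biological replicates. The labels' protocol also names Nrlp-GFP;Nrl-KO mice, but all 16 libraries carry the strain label C57BL/6J (Nrlp-GFP). The sources used here do not say whether single mice or pooled mice gave each library, so the p-values measure the spread between these libraries. The question is how the levels of these transcripts differ between rods of young and older mice.

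Complex III passes electrons from ubiquinol to cytochrome c, complex IV passes them from cytochrome c to oxygen, and both pump protons across the inner mitochondrial membrane. Complex V, the ATP synthase, lets the protons flow back through its membrane part Fo and makes ATP in its catalytic part F1. Most of their subunits are encoded in the nucleus and a few in the mitochondrial genome, and the ellipsoid of the rod inner segment is densely packed with mitochondria.

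The libraries held 20579144 to 28791777 estimated counts. All 10 rod markers were measured, and their summed level was 38225 ± 1677 CPM at 3M and 32296 ± 3880 CPM at 24M (SD, n = 4). Summed markers of other retinal cells were far lower, at 158 ± 49.1 CPM at 3M and 218 ± 50.1 CPM at 24M for Müller glia, and at 65.7 ± 22.3 and 68.1 ± 9.35 CPM for cones (SD, n = 4). Bipolar markers summed to 241 ± 14.7 CPM at 3M and 233 ± 20.1 CPM at 24M (SD, n = 4). Amacrine and ganglion markers summed to 119 ± 9.55 and 108 ± 18.1 CPM (SD, n = 4). In bulk RNA of sorted cells, fewer rods in a library and less RNA of a gene per rod cannot be told apart. The authors' normalized table holds 13 libraries, without replicate 4 of 12M and replicate 3 of 18M and of 24M (the reason is not given in these sources). Results are given below with all 16 libraries and with those 13. A library-wide trend with transcript length had 18M replicate 3 and 24M replicate 3 at its ends. It was measured as the slope of a library's log2 CPM, centred gene by gene, on log2 length. The slope was -0.041 to -0.016 in the 3M libraries, -0.047 in 12M replicate 4, 0.084 in 18M replicate 3 and -0.081 in 24M replicate 3. Libraries that the authors' table keeps came close, with 0.075 in 12M replicate 3 and -0.044 in 18M replicate 2. The median transcript length of the 37 members was 798 bases, against 2677 bases for all tested genes, so they lie on the short side of that trend.

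Levels were compared between genes as TPM, which divides by transcript length and scales each library to the same total. The full annotated length was used, so short transcripts may be understated. In complex III the highest member as counted was Uqcrb, a small subunit that contributes to the ubiquinone-binding region, at 48.4 ± 6.00 TPM (SD, n = 16 libraries). Uqcrh, the hinge protein beside cytochrome c1, followed at 46.2 ± 4.24 TPM, which is within 1 SD of Uqcrb. Uqcrc1 was counted at 27.1 TPM on its chromosome 9 row. That row may hold only a share of the gene's reads, so the rank of Uqcrc1, and with it the top rank, is uncertain. The lowest subunit was Uqcr11 at 7.82 ± 1.16 TPM, and Cycs, cytochrome c itself, stood beside it at 7.64 ± 1.24 TPM. The catalytic Rieske protein Uqcrfs1 was at 14.9 ± 1.12 TPM and cytochrome c1, Cyc1, at 11.8 ± 0.952 TPM (SD, n = 16).

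In complex IV, Cox6c was highest at 80.4 ± 7.91 TPM and Cox5a lowest at 9.07 ± 1.29 TPM (SD, n = 16). Cox4i1, the subunit through which ATP regulates the enzyme, was second at 48.0 ± 6.59 TPM, and its range of 39.8 to 63.0 TPM did not reach the Cox6c range of 64.8 to 95.7 TPM. Between Cox7c at 13.6 and Cox5a at 9.07 TPM, the 6 lowest members differed by little, and neighbours in that order overlapped in their ranges. In ATP synthase, the catalytic beta subunit Atp5b was highest at 138 ± 10.5 TPM, above the alpha subunit Atp5a1 at 75.0 ± 4.66 TPM, with ranges of 121 to 152 and 63.9 to 82.7 TPM that did not overlap. The F1 epsilon subunit Atp5e was lowest at 6.21 ± 0.874 TPM (SD, n = 16), close to the c-ring genes Atp5g2 and Atp5g1 at 7.49 and 7.54 TPM.

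**Figure D1:**
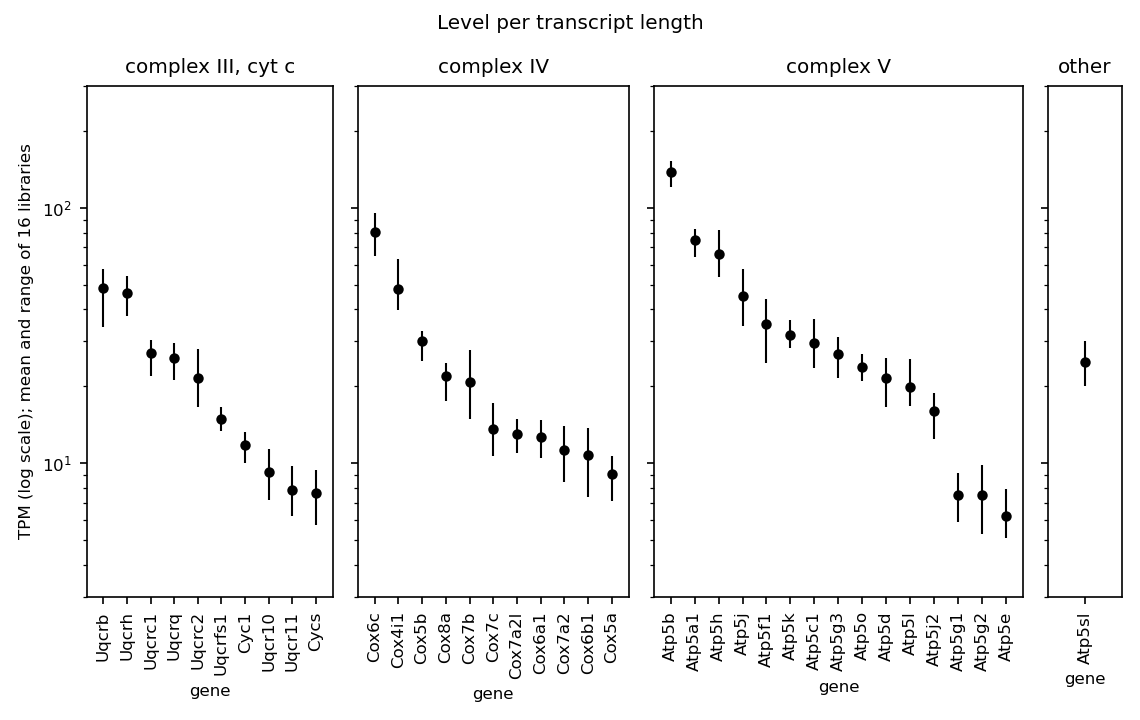
Level of each tested member per transcript length, in TPM on a log scale, as the mean (point) and the range (line) of 16 libraries. Atp5b at 138 TPM and Atp5e at 6.21 TPM mark the ends for ATP synthase, and Cycs at 7.64 TPM is lowest beside the complex III subunits.

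Complex IV has subunits with isoforms that other tissues use, and in 5 such families the common isoform made up most of the TPM summed over all transcripts, coding or not. In these families Cox6a1 made up 99.95 ± 0.13%, Cox7b 99.7 ± 0.19%, Cox8a 98.5 ± 0.80%, Cox4i1 97.3 ± 1.30% and Cox6b1 93.0 ± 2.68% (SD, n = 16), with the testis isoform Cox6b2 at 3.19 to 12.3% across libraries. The muscle isoforms Cox6a2 and Cox8b and the testis isoform Cox8c had 2, 65 and 1 estimated counts in all 16 libraries together. 3 counts are worth at most 0.147 CPM in any library, a limit for counting error only. Cox7a1, the heart and muscle isoform, was at 0.652 to 1.46 CPM, and Cox6b2 and the testis isoform Cox7b2 were at 0.164 to 1.059 CPM and 0 to 0.085 CPM. Of 6 skeletal muscle markers none was at 0 in all libraries, and of 5 sperm markers 1 was. Summed skeletal muscle markers were at 7.36 ± 0.805 CPM at 3M and 6.71 ± 0.332 CPM at 24M, and summed sperm markers at 0.495 ± 0.195 and 0.297 ± 0.133 CPM (SD, n = 4). The part of these other cells in the low isoform levels was not tested. Cox4i2, the isoform that is induced by low oxygen in some cells, was at 0.637 to 3.68 CPM, with its highest value in 12M replicate 4. Atp5s, a coupling factor gene, was at 2.16 to 4.53 CPM. These 8 genes were not tested.

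Within the Cox7a family, Cox7a2l, which takes part in joining complexes III and IV into supercomplexes, made up 50.2 ± 3.43% and Cox7a2, the common subunit isoform, 43.3 ± 3.37% of the summed TPM. Cox7a1 made up the other 6.45 ± 1.98% (SD, n = 16), at 3.65 to 9.81% across libraries. By age, its share was 4.54 ± 1.05% in the 3M libraries (3.65 to 6.03%) and 7.72 ± 0.99% in those of 18M (6.62 to 8.77%), without overlap. The 12M and 24M shares were 7.04 ± 2.05% and 6.50 ± 2.43%, with ranges that overlapped 3M (SD, n = 4). Cox7a1 had only 14 to 43 estimated counts per library, and the difference in its share was not tested. The 3 genes Atp5g1, Atp5g2 and Atp5g3 encode the same mature c-ring subunit with different import signals. Atp5g3 made up 64.0 ± 3.05% of their summed TPM, and Atp5g1 and Atp5g2 18.0 ± 2.01% and 18.0 ± 2.63% (SD, n = 16). These shares count all transcripts of each gene. Of the Atp5g3 counts 37.3% were on coding transcripts, against 100% for Atp5g1 and Atp5g2, so they are not shares of the coding transcripts. Cyct, the testis form of cytochrome c, was at 0 in all libraries of 3M, 18M and 24M and at most at 0.0749 CPM at 12M, below the level of 3 counts.

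With age, the estimates of nearly all members lay on the low side, but few single genes passed the test. By edgeR's quasi-likelihood test with Benjamini-Hochberg adjustment over all 12177 genes, no member was called at 12M against 3M, where 0.411% of all tested genes were called lower. There, 3 members had an unadjusted p under 0.05, and DESeq2 and limma voom also called 0 members. At 18M and at 24M, 1 of 37 members was called lower, against 0.961% and 1.6% of all tested genes, and the same gene, Cycs, was the 1 of 37 called in a linear fit over the 4 ages, against 1.95%. No member was called higher by edgeR in any of these 4 tests, against 0.977%, 1.68%, 2.65% and 2.84% of all tested genes, and 0 members had a higher estimate with an unadjusted p under 0.05. DESeq2 and voom called 0 higher as well. The called share of 1 of 37 is 1 gene and is near the background.

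Estimates lay below 0 for 36 of 37 members at 12M, for all 37 at 18M and for all 37 at 24M, against 50.6%, 48.4% and 47.3% of all tested genes. The direction at 12M was lost with each library's length slope as a covariate. There 17 of 37 lay below 0 and the median was 0.01. In TPM 23 of 37 lay below 0 at 12M, but on that scale the median of all tested genes was 0.14. Below that all-gene median lay 35 of 37 members, and relative to it the members' median was -0.18. Of the 1369 tested genes with transcripts under 1000 bases, 935 lay below 0 at 12M, 752 at 18M and 835 at 24M. In the linear fit they lay below 0 for all 37, against 46.1%. The median log2 fold change of the members was -0.18, -0.23 and -0.24 at the 3 ages, against -0.003, 0.007 and 0.011 for all tested genes. The 12M median was -0.36 without 12M replicate 4 and -0.11 without 12M replicate 3. These comparisons share the 3M libraries. Groups did not overlap, with all 4 libraries below all 4 of 3M, for 1 member at 12M, 11 at 18M and 9 at 24M, against 2.67%, 6.46% and 5.32% of all tested genes. The mean was highest at 3M for 36 members (Atp5l was highest at 12M), and it was lowest at 24M for 19, at 18M for 12 and at 12M for 6.

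**Figure D2:**
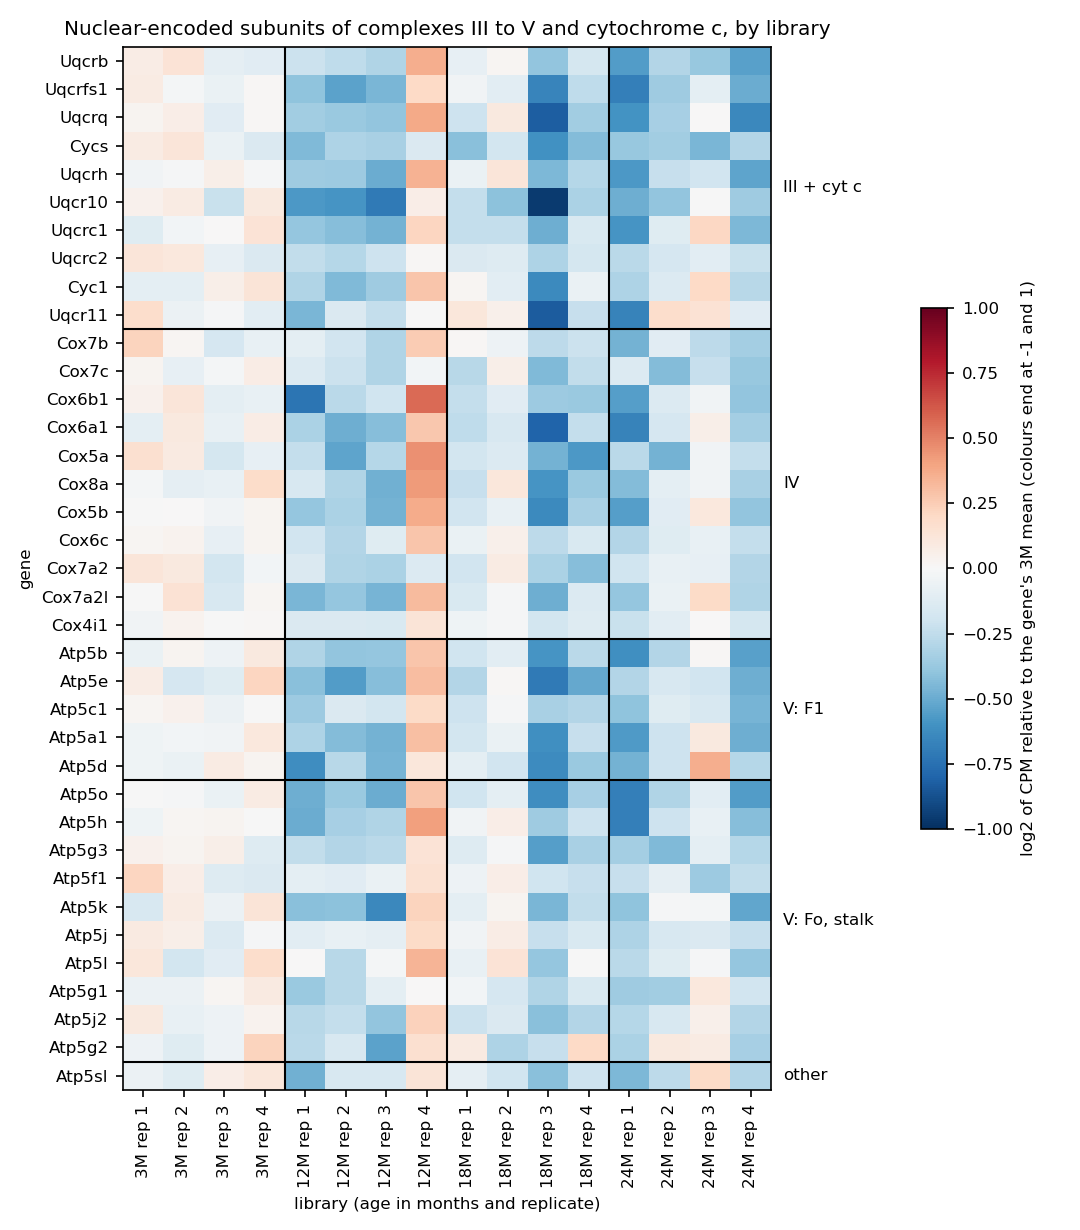
Log2 of each tested member's CPM relative to its 3M mean (blue lower, red higher) in the 16 libraries, grouped by complex and ordered by the 24M estimate. 12M replicate 4 stands above the 3M mean in 33 of 37 members and 18M replicate 3 in 0.

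The members moved together from library to library. In 12M replicate 4, 33 of 37 members were above their 3M mean, with a median log2 difference of 0.23, while the other 3 libraries of 12M had medians of -0.32, -0.30 and -0.32 with 1, 0 and 0 members above. At 18M the medians were -0.14, -0.05, -0.46 and -0.24 in replicates 1 to 4, and at 24M -0.40, -0.16, -0.03 and -0.34. The high libraries, 12M replicate 4, 18M replicate 2 and 24M replicate 3, and the low ones, 18M replicate 3, 24M replicate 1 and 24M replicate 4, were the same for most members. The summed rod markers were also high in 12M replicate 4 (41211 CPM) and 24M replicate 3 (37192 CPM). They were low in 18M replicate 3 (29028 CPM), 24M replicate 1 (29505 CPM) and 24M replicate 4 (28879 CPM). In 18M replicate 2 they stood at 34391 CPM, the highest of 18M but below the lowest 3M library at 36178 CPM. Müller glia markers summed to 408 CPM in 12M replicate 4 and to 110, 137 and 175 CPM in the other 12M libraries. The part of these markers and of the length slope in the shared movement was not tested.

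Cycs (ENSMUSG00000063694, chromosome 6, 50562563 to 50566538 on the minus strand, GRCm38) encodes somatic cytochrome c, the electron carrier that also triggers apoptosis when it leaves the mitochondrion. It stood at 31.9, 32.7, 28.8 and 27.2 CPM in the 3M libraries. At 12M it was at 22.0, 24.2, 24.0 and 27.1 CPM, and at 18M at 22.4, 26.4, 19.6 and 22.2 CPM. At 24M it was at 23.0, 23.6, 21.8 and 24.5 CPM. All 12 libraries of the later ages lay below the lowest 3M library, the closest being 12M replicate 4. Cycs fell by 0.41 on the log2 scale at 18M (SE 0.10, edgeR adjusted p = 0.030) and by 0.38 at 24M (SE 0.10, edgeR adjusted p = 0.036), a change of -23.0%. At 12M its log2 fold change was -0.31 (SE 0.10, edgeR adjusted p = 0.19), and in the linear fit it fell by 0.23 per 12 months on the log2 scale (SE 0.06, edgeR adjusted p = 0.023). The difference between later ages was small beside the spread: the means were 24.3 ± 2.11, 22.7 ± 2.79 and 23.2 ± 1.15 CPM from 12M to 24M (SD, n = 4).

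The Cycs estimate changed little when libraries were left out, but its place under the threshold did. Over the 16 fits with 1 library left out, the 24M log2 fold change ran from -0.42 to -0.34 and the adjusted p from 0.021 to 0.13. The call at 24M ended in 11 of these fits, those without replicate 1, 2 or 3 of 3M, 2 or 3 of 12M, 1 or 4 of 18M, or any 24M library. At 18M it ended in 6 fits, those without replicate 1, 2 or 3 of 3M or 1, 3 or 4 of 18M, with adjusted p-values of 0.012 to 0.12. The linear call ended in 3 fits, those without replicate 1, 2 or 3 of 3M. With the 13 libraries, Cycs was called lower at all 3 ages, with log2 fold changes of -0.37 at 12M, -0.35 at 18M and -0.35 at 24M (edgeR adjusted p = 0.0057, 0.022 and 0.0095). Cycs transcripts averaged 2926 bases, longer than those of any other complex III gene. With the length slope as a covariate its 24M log2 fold change was -0.35 in 16 libraries (edgeR adjusted p = 0.023) and -0.37 in the 13 (edgeR adjusted p = 0.20), where the call ended.

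As a description, the bases before the members' start sites were searched for the cores of 3 factors known to bind promoters of nuclear respiratory genes. These were GCGCATG for NRF1, CCGGAAG for GABPA and AAGATGG for YY1, on both strands and with all 7 letters matching. 35 of the 45 symbols had an entry in RefSeq's table for GRCm38.p6, and the 250 bases before each start were read. An NRF1 core was found for 6 of 35 genes (17.1%) against 3.68% of 27025 genes in the table, a GABPA core for 8 (22.9%) against 7.83%, and a YY1 core for 2 (5.71%) against 5.18%. Any of the 3 was found for 13 (37.1%) against 15.4%. The 27025 genes were not filtered for coding or expression, nor matched to the members in GC content. A match is a description of letters and no site of binding. The NRF1 matches were in Cycs, Cox5b, Cox6a1, Atp5g2, Atp5k and Atp5l, and the GABPA matches in Uqcr11, Uqcrh, Cox6a1, Cox6b1, Atp5e, Atp5h, Atp5j and Atp5l. 4 stretches are shown, Cycs because it is the called member, Cox6a1 and Atp5l because they hold an NRF1 and a GABPA core, and Atp5j because it holds a GABPA and a YY1 core. They read 5′ to 3′ on the strand of the gene, with matches on either strand in capitals (CATGCGC and CTTCCGG are the NRF1 and GABPA cores of the other strand).
Cycs (chr6:50566570-50566819, strand -): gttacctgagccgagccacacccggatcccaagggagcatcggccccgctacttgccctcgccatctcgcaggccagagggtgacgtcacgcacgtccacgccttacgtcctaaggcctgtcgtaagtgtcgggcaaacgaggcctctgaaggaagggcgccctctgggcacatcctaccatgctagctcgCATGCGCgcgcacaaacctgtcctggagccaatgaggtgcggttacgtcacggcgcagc
Cox6a1 (chr5:115348959-115349208, strand -): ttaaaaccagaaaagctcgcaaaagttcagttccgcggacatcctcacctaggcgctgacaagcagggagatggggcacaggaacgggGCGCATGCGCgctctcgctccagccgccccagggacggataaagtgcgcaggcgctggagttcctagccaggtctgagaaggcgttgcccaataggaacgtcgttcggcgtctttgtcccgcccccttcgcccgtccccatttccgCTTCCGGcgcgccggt
Atp5l (chr9:44920743-44920992, strand -): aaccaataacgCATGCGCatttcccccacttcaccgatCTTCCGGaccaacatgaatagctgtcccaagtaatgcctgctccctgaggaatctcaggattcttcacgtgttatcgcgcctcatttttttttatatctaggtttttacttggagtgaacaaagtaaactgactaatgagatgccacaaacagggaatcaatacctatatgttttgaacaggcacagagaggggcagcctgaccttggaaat
Atp5j (chr16:84834977-84835226, strand -): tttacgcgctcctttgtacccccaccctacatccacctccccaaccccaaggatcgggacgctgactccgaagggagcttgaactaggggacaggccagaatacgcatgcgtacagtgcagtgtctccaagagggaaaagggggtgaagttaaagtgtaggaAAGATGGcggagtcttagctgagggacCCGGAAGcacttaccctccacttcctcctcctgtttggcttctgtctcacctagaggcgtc
In Cox6a1 the NRF1 core is found on both strands, and the letters of the matches overlap. Atp5j has another start in the table whose 250 bases hold none of the cores. The annotated Atp5j gene overlaps Gabpa, the gene of the GABPA factor, on the opposite strand by 701 bases.

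Among the complex III subunits, Uqcrb had the smallest p after Cycs. It stood at 42.9, 44.7, 38.2 and 37.6 CPM at 3M and at 27.5, 33.2, 31.2 and 27.8 CPM at 24M, so that the groups did not overlap. Its log2 fold change at 24M was -0.45 (SE 0.14, edgeR adjusted p = 0.090), which did not pass the threshold. At 12M it was at 35.1, 34.1, 33.0 and 52.6 CPM, where replicate 4 alone was above the 3M libraries, and at 18M at 38.4, 41.3, 30.8 and 35.9 CPM. Without 12M replicate 4, Uqcrb was called lower at 24M (log2 fold change -0.45, edgeR adjusted p = 0.0086), and with the 13 libraries its 24M log2 fold change was -0.47 (SE 0.08, edgeR adjusted p = 0.0016).

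Uqcrfs1, the Rieske iron-sulfur protein that hands electrons to cytochrome c1, was at 35.4, 33.0, 31.9 and 33.8 CPM at 3M and at 20.7, 26.1, 31.2 and 23.6 CPM at 24M. The groups did not overlap, but 24M replicate 3 lay close to the 3M libraries, and the log2 fold change was -0.40 (SE 0.17, edgeR adjusted p = 0.28). Uqcrh was at 40.3 to 42.9 CPM at 3M and at 27.5 to 36.1 CPM at 24M, again without overlap (log2 fold change -0.38, SE 0.17, edgeR adjusted p = 0.31). Uqcr10, a small subunit with the lowest estimates at 12M and 18M, had log2 fold changes of -0.46 (SE 0.20), -0.50 (SE 0.20) and -0.33 (SE 0.20) at the 3 ages (edgeR adjusted p = 0.48, 0.30 and 0.53). Its 12M values of 4.50, 4.47 and 4.08 CPM lay below all of 3M (5.91 to 7.48 CPM), and 7.31 CPM in replicate 4 did not.

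The catalytic Cyc1 and the core proteins did not pass the test either. Cyc1 stood at 27.4 ± 2.24 CPM at 3M and 25.3 ± 4.39 CPM at 24M (SD, n = 4), and Uqcrc2, a core protein that holds the complex together, at 37.8 ± 3.48 and 32.9 ± 1.61 CPM. Uqcrc1, the other core protein, was at 47.8 ± 3.64 and 41.3 ± 10.6 CPM (SD, n = 4). Its 2 rows hold the same CPM in each of the 16 libraries of the authors' gene table. The tested chromosome 9 row may then hold only a share of the gene's reads, and its level per length is understated to that extent. Uqcr11 had an estimate of -0.09 (SE 0.22), the closest to 0 of all members at 24M. Over the 10 genes, the median log2 fold change at 24M was -0.35.

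Complex IV held no called member. Cox7c, a small membrane subunit, had the smallest p, at 12.1, 11.2, 11.7 and 12.5 CPM at 3M and at 10.7, 8.67, 10.02 and 8.98 CPM at 24M. These groups did not overlap, and the log2 fold change was -0.30 (SE 0.11, edgeR adjusted p = 0.19). Cox7b was at 19.3 ± 2.32 and 15.6 ± 1.69 CPM with 1 overlap of the ranges, 17.1 CPM at the low end of 3M against 17.8 CPM at the high end of 24M. Its log2 fold change was -0.31 (SE 0.13, edgeR adjusted p = 0.27). Cox6c, the most abundant subunit per length, stood at 102, 103, 94.7 and 102 CPM at 3M and at 81.4, 92.1, 95.0 and 84.8 CPM at 24M. 24M replicate 3 alone reached the lowest 3M library, and the log2 fold change was -0.18 (SE 0.11, edgeR adjusted p = 0.51).

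Cox5a, the least abundant per length, was at 10.5, 9.92, 8.19 and 8.77 CPM at 3M and at 7.64, 6.55, 9.08 and 7.83 CPM at 24M, with overlap (log2 fold change -0.26, SE 0.19, edgeR adjusted p = 0.63). Cox4i1 was at 43.9, 46.2, 45.01 and 45.4 CPM at 3M. Its 24M values were 38.6, 41.8, 45.2 and 39.98 CPM, where replicate 3 again reached the 3M range (log2 fold change -0.12, SE 0.08, edgeR adjusted p = 0.53). The isoforms Cox6a1, Cox7a2, Cox7a2l and Cox8a had log2 fold changes of -0.27 (SE 0.19), -0.17 (SE 0.12), -0.13 (SE 0.18) and -0.22 (SE 0.19) at 24M, and ranges that overlapped those of 3M. The minor isoforms were too low to test, so shifts between isoforms could not be followed beyond their shares. Among these, the Cox7a1 share was higher in all 18M libraries than in any 3M library. For every other isoform share, the range of each later age overlapped that of 3M. The median over the 11 tested genes of complex IV was -0.22 at 24M.

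In the F1 part of ATP synthase, Atp5c1, the gamma subunit that forms the rotating shaft, had the smallest p. It stood at 55.4, 56.3, 52.5 and 54.6 CPM at 3M and at 41.3, 50.3, 48.9 and 39.4 CPM at 24M. All 24M libraries were below all 3M libraries (log2 fold change -0.28, SE 0.11, edgeR adjusted p = 0.24). Atp5b, the catalytic subunit, was at 272, 291, 276 and 306 CPM at 3M and at 187, 233, 287 and 196 CPM at 24M. 24M replicate 3 lay within the 3M range, and at -0.34 the log2 fold change (SE 0.16, edgeR adjusted p = 0.37) did not pass. With the 13 libraries, which leave that library out, it was -0.48 (SE 0.08, edgeR adjusted p = 0.0010). Atp5a1 followed Atp5b, at 286 ± 13.9 CPM at 3M and 237 ± 50.9 CPM at 24M (SD, n = 4). Atp5e was at 7.26, 6.07, 6.27 and 8.08 CPM at 3M and at 5.51, 6.11, 5.97 and 4.76 CPM at 24M, with overlap (log2 fold change -0.31, SE 0.21, edgeR adjusted p = 0.58). Over the 5 genes of F1 the median was -0.28 at 24M.

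In Fo and the stalk, Atp5j, coupling factor 6 of the peripheral stalk, was at 46.7, 45.6, 39.96 and 43.5 CPM at 3M and at 35.4, 39.2, 39.7 and 37.4 CPM at 24M. The groups were separated by little, 39.96 against 39.74 CPM (log2 fold change -0.21, SE 0.09, edgeR adjusted p = 0.26). Atp5f1, subunit b of the stalk, was at 72.6, 65.4, 57.2 and 56.5 CPM at 3M and at 53.2, 58.9, 48.5 and 52.6 CPM at 24M. Only 24M replicate 2 exceeded the lowest 3M libraries (log2 fold change -0.24, SE 0.10, edgeR adjusted p = 0.26). Atp5o, the protein that joins the stalk to F1, was at 30.2, 30.1, 29 and 32.1 CPM at 3M and at 18.7, 24.6, 28.1 and 20.4 CPM at 24M. At -0.40, its log2 fold change (SE 0.17, edgeR adjusted p = 0.29) was the lowest of ATP synthase, with no overlap between the groups.

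Of the c-ring genes, Atp5g3 was at 34.4, 34.0, 34.9 and 30.6 CPM at 3M and at 26.3, 24.4, 31.3 and 27.3 CPM at 24M (log2 fold change -0.29, SE 0.12, edgeR adjusted p = 0.28), where 24M replicate 3 overlapped the 3M range. Atp5g1 and Atp5g2 had log2 fold changes of -0.19 (SE 0.11) and -0.12 (SE 0.17), and both overlapped. Counting coding and noncoding transcripts together, the share of Atp5g3 among the 3 genes was the largest in every library, at 58.3 to 68.0%. Atp5l, subunit g of the membrane part, had the one estimate above 0 in any of the 3 contrasts, 0.02 (SE 0.14) at 12M, and -0.21 (SE 0.15) at 24M. The median over the 10 genes of Fo and stalk was -0.22 at 24M.

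**Figure D3:**
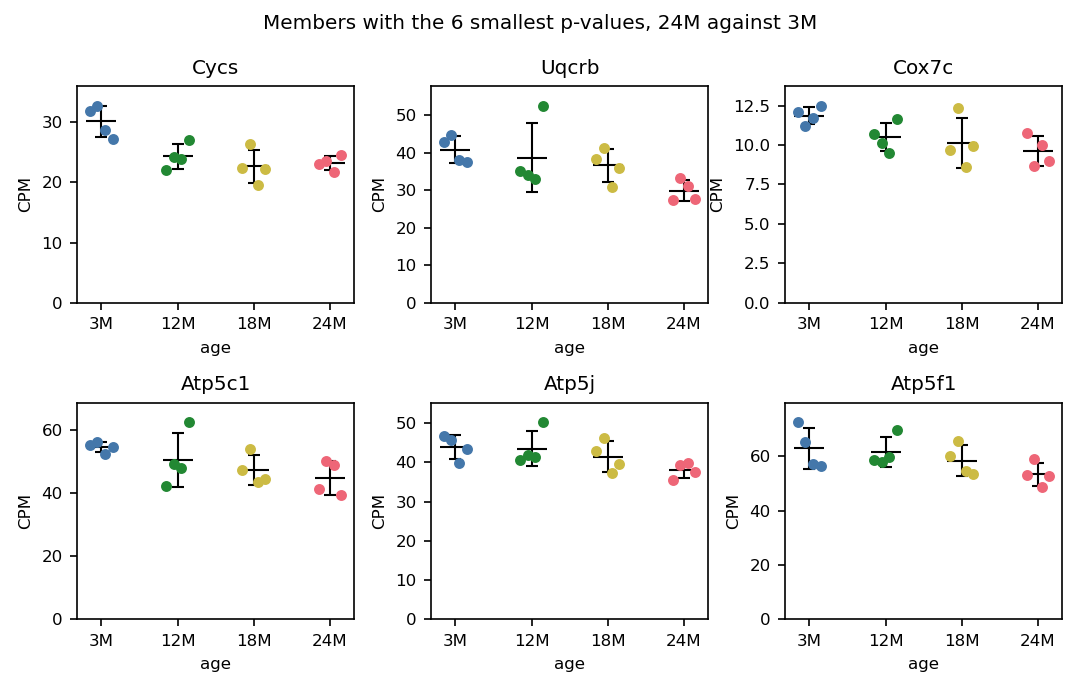
CPM of the 6 members with the smallest p for 24M against 3M, by age, with each library as a point and the mean ± SD of 4 libraries in black. Cycs is lower in all libraries of the later ages than in any 3M library, and all 6 members show 12M replicate 4 at or near the top of its age.

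**Figure D4:**
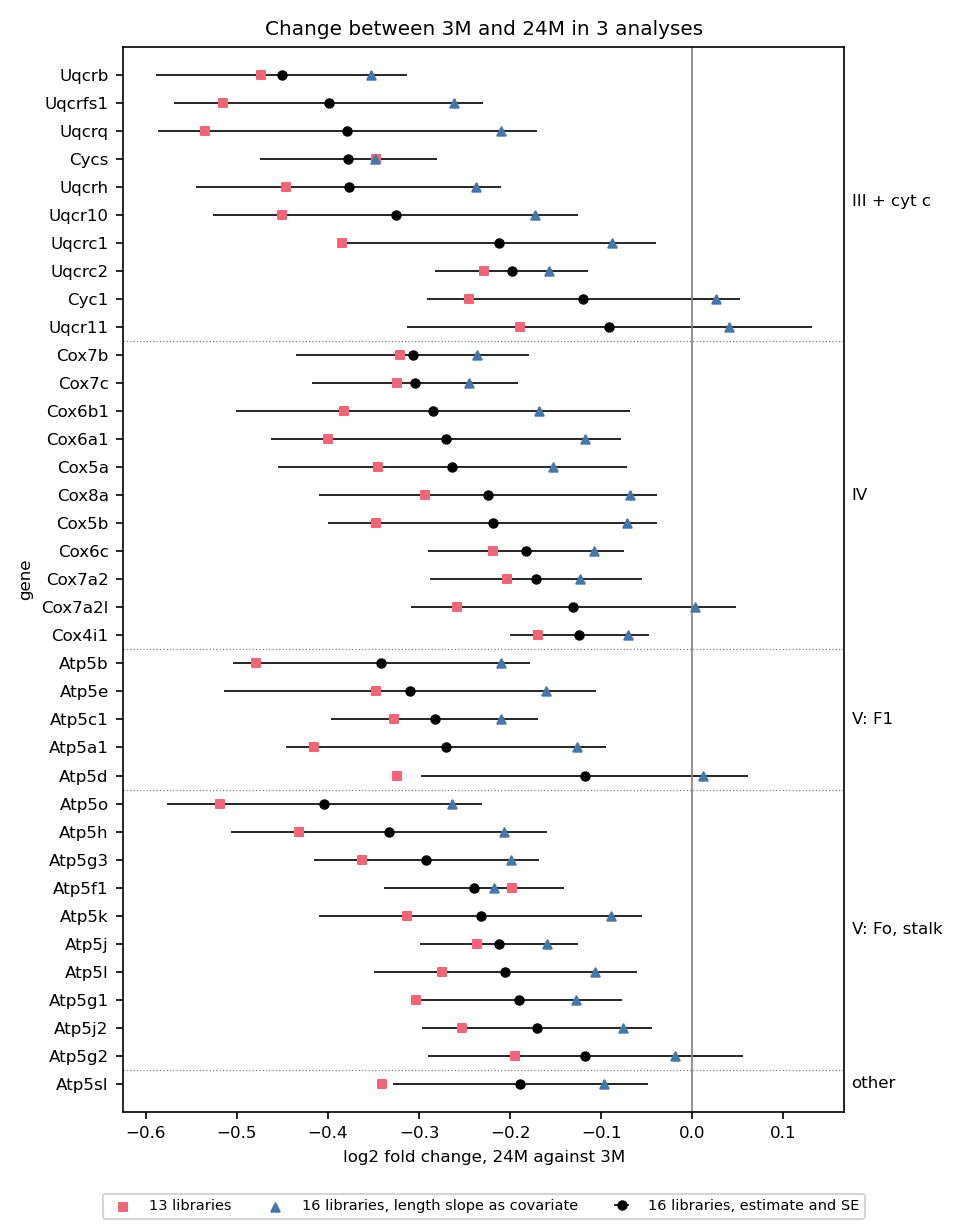
Log2 fold change of each tested member at 24M against 3M with 16 libraries (black, estimate and SE), with the 13 libraries of the authors' normalized table (red) and with the length slope of each library as a covariate (blue). With 13 libraries 26 members were called lower, and with the covariate 2.

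How many members were called changed with the libraries used and with the weights and covariates of the fit. With the 13 libraries, 27 of 37 members were called lower at 12M, 1 at 18M and 26 at 24M, against 18.8%, 2.22% and 11.5% of all tested genes. The medians were then -0.36, -0.16 and -0.33 on the log2 scale. By the median of the members, this fit leaves out the highest library of 12M, the lowest of 18M and the highest of 24M. At 24M, the 11 members not called in it were Cox5a, Cox6b1, Cox7a2, Cox7a2l, Cox8a, Uqcr11, Atp5e, Atp5f1, Atp5g2, Atp5k and Atp5l. In a fit of all 16 libraries that weights each by its quality (limma voom with quality weights), 28, 1 and 27 members were called lower at the 3 ages, against 24.2%, 3.76% and 13.6% of all tested genes. With each library's slope on GC content as a covariate, 14 members were called lower at 24M, against 10.3% of all tested genes.

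With each library's length slope as a covariate, 0, 1 and 2 members were called lower in 16 libraries (Cycs at 18M, Cycs and Uqcrb at 24M), against 0.69%, 2% and 5.28%. The median at 24M was then -0.15 with 33 of 37 estimates below 0. In the 13 libraries, where 26 members were called at 24M without the covariate, 0, 1 and 0 members were called with it at the 3 ages, against 0.0657%, 2.4% and 0.788%, and the median at 24M was -0.16. The 1369 tested genes with transcripts under 1000 bases had medians of -0.13, -0.04 and -0.05 at the 3 ages. The members' median was further from 0 than that of these short genes at each age, at -0.18, -0.23 and -0.24. The short genes were chosen by length alone, without matching in level or GC content. The part of transcript length in the members' estimates was not tested.

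Summed over each complex, CPM was lower at later ages with wide spread. Complex III with cytochrome c summed to 296 ± 6.57 CPM at 3M and 239 ± 32.3 CPM at 24M, complex IV to 302 ± 10.9 and 264 ± 27.8 CPM, and complex V to 985 ± 29.8 and 810 ± 133 CPM (SD, n = 4). Spread of summed CPM between libraries was larger at 24M than at 3M for each complex. Per length, the sums were 231 ± 11.3 and 206 ± 11.2 TPM for complex III with cytochrome c, 278 ± 8.67 and 269 ± 21.7 TPM for complex IV, and 565 ± 21.5 and 527 ± 27.6 TPM for complex V. On the TPM scale all tested genes shifted, with a median log2 difference of 0.17 at 24M, and the members' median was -0.09, or -0.26 relative to that shift. All 37 members lay below the all-gene median there, 29 of them below 0. Limma on log2 TPM with a pseudocount of 0.5 called 0 members lower at 24M, against 0.443% of all tested genes. On that scale Cycs had a log2 difference of -0.18 (SE 0.17, limma adjusted p = 0.75), or -0.35 relative to the shift.

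**Figure D5:**
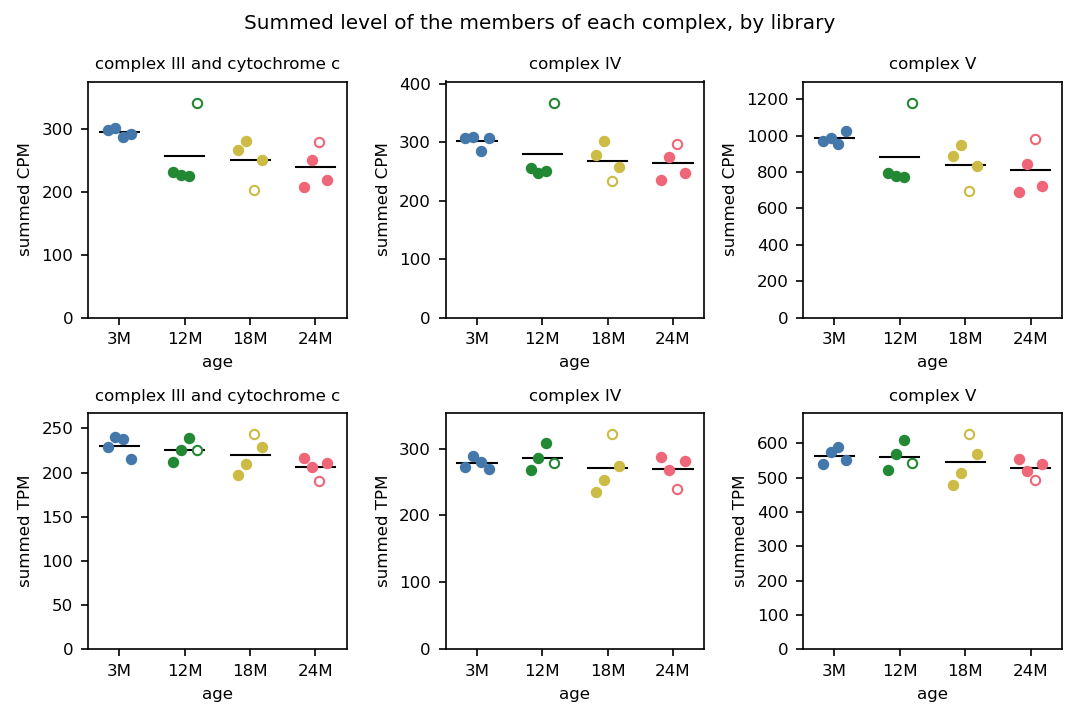
Summed CPM (top) and TPM (bottom) of the members of each complex in every library, the untested isoforms of complex IV included. The line is the mean of 4, and open points are the 3 libraries absent from the authors' normalized table. In CPM 12M replicate 4 is the highest library of all for each complex, and in TPM 18M replicate 3 is.

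The neighbouring genes of the pathway were measured from lists of assembly factors, mitochondrial partners and regulators. Complex I genes were taken as those with names that begin with Nduf, which also takes in Ndufa4 and any assembly factors so named. Of these 45 genes, 42 were tested, none was called, and 39 had estimates below 0 at 24M with a median of -0.20. Among 7 tested assembly factors of complex III and cytochrome c, none was called and the median was -0.06, with Uqcc3 lowest at 47.6 ± 0.449 CPM at 3M and 38.4 ± 4.72 CPM at 24M (log2 fold change -0.31, SE 0.11, edgeR adjusted p = 0.16). Of 25 complex IV assembly factors 23 were tested, none was called, and the median was -0.08. The 6 assembly and regulatory genes of complex V gave a median of -0.23 with none called. Atpif1, the inhibitor that keeps ATP synthase from running backwards, was among them at 23.8 ± 2.35 and 18.2 ± 2.17 CPM (log2 fold change -0.39, SE 0.15, edgeR adjusted p = 0.21). Ndufa4, now counted as a complex IV subunit, and the supercomplex factors Higd1a and Higd2a had log2 fold changes of -0.30 (SE 0.18), -0.36 (SE 0.16) and -0.39 (SE 0.16), and none was called.

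Of the 6 subunits of the same complexes that the mitochondrial genome encodes, 4 had estimates above 0 at 24M. At 24M the log2 fold changes were 0.29 (SE 0.38) for mt-Cytb of complex III and 0.36 (SE 0.26), -0.02 (SE 0.42) and 0.07 (SE 0.23) for mt-Co1, mt-Co2 and mt-Co3 of complex IV. For mt-Atp6 and mt-Atp8 of complex V they were -0.22 (SE 0.34) and 0.07 (SE 0.34). The estimates of mt-Co2, mt-Co3, mt-Atp6 and mt-Atp8 changed sign when single libraries were left out. None was called by edgeR in any contrast, and at 12M all 6 estimates were above 0. The difference from the nuclear members was not tested. Their sums varied widely, at 1677 ± 605 CPM at 3M and 1942 ± 613 CPM at 24M (SD, n = 4). Of 12 regulators, among them Nrf1, Gabpa, Yy1 and the coactivator Ppargc1a, none was called at any age and the median log2 fold change at 24M was 0.03.

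Part of the counts came from transcripts that do not code for the subunit. Of the members' estimated counts, 79.0 ± 0.66% were on coding transcripts at 3M and 77.0 ± 2.98% at 24M, and 12.9 ± 0.39% and 14.7 ± 2.12% on transcripts with a retained intron (SD, n = 4). These shares overlapped between ages. For 5 of 37 members under 50% of the counts were coding, with Atp5f1 lowest at 16.2% and Atp5g3, Cox4i1, Cox7b and Atp5sl at 37.3 to 43.7%. For 10 members all counts were coding, so the gene values of the first 5 are not levels of the coding transcript. Of the 37, 11 overlap a gene on the opposite strand, Atp5j, Atp5f1, Uqcrb, Cox6c, Cox4i1 and Atp5o among them, and the strand setting of the counting is not given in these sources. Atp5o also shares 1769 bases with a second annotated gene of that name on its own strand, and Cox4i1 5986 bases with Gm20388. The counting could split reads within those pairs, so the values of Atp5o and Cox4i1 are uncertain to that extent.

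In the authors' deposited table of comparisons, 38 member rows are listed and 23 have an adjusted p under 0.05 (an F statistic over the ages), against 26.7% of 11826 rows. Both rows of Uqcrc1 are among the 23, with the same values, so rows are not all separate genes. The authors' deposited table gives lower levels than at 3M for 38 rows at 12M, 37 at 18M and 38 at 24M, with medians of -0.35, -0.14 and -0.36 on the log2 scale. In the authors' deposited table Uqcrfs1 has the smallest adjusted p of the members, 0.0023, and Cycs has 0.016. These values share the libraries used above and are no independent measurement.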

How the data were processed

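Members and gene lists were chosen with earlier results of these data known. The authors deposited estimated counts per transcript for 16 libraries; GRCm38.p4 and the tools limma 3.32.2, edgeR 3.13.9 and kallisto 0.42.5 appear in the submitters' processing notes, with no role or order. The authors also deposited CPM per gene, a signal scaled to each library's effective total, from which the members were taken, normalized CPM of 11826 genes in 13 libraries, and a table of log2 differences with an F statistic as a score, a p-value and an adjusted p-value, per the file headers. The sources used here do not say how transcripts were summed to genes in those tables. Here, 111896 of 113468 transcripts were matched to GENCODE vM21 genes and summed to 45038 genes, rounded, leaving 0.73 to 1.08% of counts unmatched. Genes at or above 5 CPM in 4 or more libraries were fitted with edgeR 4.0.16 (R 4.3.3; TMM, quasi-likelihood, all 16 libraries, age as a factor or as a linear term), with adjusted p under 0.05 as the threshold. The common biological coefficient of variation was 0.169. The code was tested on simulated data. TPM used full transcript lengths. Named in full are members called in any test, the 6 with the smallest p at 24M and in the linear fit, the most and least abundant per length, and isoform families; Uqcrfs1, Uqcrh, Uqcr10, Uqcrc1, Uqcrc2, Cyc1, Cox7b, Atp5a1, Uqcc3, Atpif1, Ndufa4, Higd1a and Higd2a were named after their values were seen. Alternatives used DESeq2 1.42.0, limma 3.58.1 voom, other scalings, filters and pseudocounts, covariates, a block and left-out libraries. The TPM fit and the length slope in the 13 libraries were chosen after seeing the data.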

Additional observations from a re-analysis of the deposited data

Results flagged for a closer look

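Of 160 groups of 4 libraries examined, 24 held a library whose gap to the nearest other was above the 95% critical value of Dixon's test for 4 values. Chance flags about 1 in 20 groups, and the members are not independent of each other.

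In 17 of the flagged groups 12M replicate 4 was the highest library for a member, and it was never the lowest in a flagged group. Among complex III genes it stood at 33.2 CPM for Cyc1, 7.31 for Uqcr10, 52.6 for Uqcrb, 55.6 for Uqcrc1, 38.5 for Uqcrfs1, 52.6 for Uqcrh and 31.8 CPM for Uqcrq. Among complex IV genes it stood at 49.3 CPM for Cox4i1, 51.1 for Cox5b and 27.4 CPM for Cox7a2l. In ATP synthase it stood at 347 CPM for Atp5b, 8.63 for Atp5e, 69.8 for Atp5f1, 36.8 for Atp5g3, 81.7 for Atp5h, 50.2 for Atp5j and 37.0 CPM for Atp5o. The sums over each complex were flagged in the same library, at 342 CPM for complex III with cytochrome c, 367 CPM for complex IV and 1180 CPM for complex V. Cycs was not flagged at any age.

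The other flagged libraries were single cases. Cox6a1 was lowest in 18M replicate 3 at 6.63 CPM, Cox6c lowest in 3M replicate 3 at 94.7 CPM, and Atp5a1 highest in 3M replicate 4 at 307 CPM. The complex IV sum was lowest in 3M replicate 3 at 285 CPM.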

How the results depend on the processing

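The median log2 fold change of the members stayed below 0 at 18M and 24M under all 31 alternatives run. At 24M, where it was -0.24, it ran from -0.33 to -0.18 with 1 library left out and from -0.34 (authors' normalized CPM) to -0.09 (TPM) under the others, with -0.15 with the length slope and -0.16 with that slope in the 13 libraries. At 12M, where it was -0.18, it turned to 0.011 with the length slope, was -0.04 in TPM and -0.09 with the GC slope, and ran from -0.36 (without 12M replicate 4) to -0.11 (without 12M replicate 3) with 1 library left out. At 18M, where it was -0.23, it ran from -0.30 to -0.16 with 1 library left out and from -0.25 to -0.07 under the others. The alternatives for the 12M and 18M medians were run after the data were seen. No alternative called a member higher. The counts called lower moved. Those with the authors' normalized CPM are counts among 38 rows, in which Uqcrc1 has 2 rows. At 12M the count went from 0 to 28 with quality weights, 27 with the 13 libraries and 21 with the authors' normalized CPM at either pseudocount. At 18M the count of 1 became 0 without a filter, with the authors' normalized CPM and in TPM. At 24M the count of 1 became 2 with DESeq2, with only the ages compared and with the length slope, 14 with the GC slope, 20 with the authors' normalized CPM, 26 with the 13 libraries and 27 with quality weights. It became 0 without a filter, with the length slope in the 13 libraries and in TPM. In the linear fit the count of 1 became 2 with DESeq2 and with the length slope in the 13 libraries, 3 with the length slope, 5 with the 13 libraries, 7 with the authors' normalized CPM, 13 with the GC slope, 27 with quality weights and 0 in TPM. With 1 library left out the counts ran from 0 to 2 at 12M, 0 to 1 at 18M, 0 to 2 at 24M and 0 to 2 in the linear fit, and the count of 2 at 12M and 24M came without 12M replicate 4. The cause of these movements was not tested.

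The signs of several estimates turned, none of them called. With the length slope, the 24M log2 fold changes were 0.011 for Atp5d, 0.0035 for Cox7a2l, 0.026 for Cyc1, 0.041 for Uqcr11, -0.027 for mt-Cytb and -0.21 for mt-Atp8. With that slope in the 13 libraries they were 0.043 for Cox7a2, 0.13 for Atp5k, 0.047 for Atp5g2, 0.062 for Uqcr11, 0.14 for Cox8a and 0.12 for mt-Co2. In TPM, where all genes shifted upward, they were 0.013 for Cox7a2, 0.022 for Atp5d, 0.096 for Atp5j2, 0.036 for Cox7a2l, 0.052 for Atp5g2, 0.048 for Cyc1, 0.065 for Uqcr11, 0.063 for Cox4i1 and 0.18 for mt-Co2, and 0.050 for Uqcrc2 at 12M. For mt-Co2 they were also 0.0024 with voom, 0.067 with quality weights, 0.25 and 0.24 with the authors' normalized CPM and 0.18 with the 13 libraries. For mt-Atp6 they were 0.057 and 0.056 with the authors' normalized CPM and 0.0065 with the 13 libraries. With 1 library left out the ranges were -0.19 to 0.075 for Uqcr11, -0.24 to 0.35 for mt-Co2, -0.12 to 0.20 for mt-Co3, -0.50 to 0.022 for mt-Atp6 and -0.13 to 0.39 for mt-Atp8.

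Same-numbered replicates did not pair. The correlation of their deviations ran from -0.74 to 0.73 and was over 0.1 in 11 of 24 pairs. With the replicate block the counts were 0 at 12M and 1 at 18M, at 24M and in the linear fit, the median at 24M was -0.24, and mt-Co2 was at 0.024.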
